A study of Sus scrofa with 11 samples.

Results

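The genes described here are 41 genes of the epidermis that encode the junctions between keratinocytes and the machinery of cornification, chosen by symbol. Of these, 39 were found among the 30376 genes measured, and CSTA and FLG2 matched no symbol. Genes described in the annotation as stefin A1 and A8, and 1 similar to filaggrin-2, were not counted as members. RNA was sequenced from full-thickness punch wounds on the back of female Yucatan minipigs, excised on day 10. The 7 diabetic wounds came from 1 minipig made diabetic with intravenous streptozotocin (STZ), a toxin of the insulin-producing beta cells, at 6 months of age, kept on insulin until a week before wounding. The 4 non-diabetic wounds came from 1 minipig that received the same wounds and dressings, whose age is not given in the sources used here. Each group was thus 1 animal: replicate wounds share that animal, p-values measure only how its wounds vary, and diabetes and the individual minipig cannot be told apart.

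Keratinocytes of the epidermis are held together by desmosomes, in which desmogleins and desmocollins of neighbouring cells bind each other and are tied to the keratin filaments by plakoglobin, plakophilins and desmoplakin. Adherens junctions and tight junctions complete the contact. As the cells move towards the surface they cornify: transglutaminases cross-link envelope proteins such as involucrin, lipids are attached to this envelope, and proteases cut the junctions so that the outermost cells are shed. In a healing wound the new epidermis grows in from the edge, so a punch of wound tissue holds epidermis, granulation tissue and underlying tissue in proportions that differ between wounds.

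Levels are given as FPKM, the reads on a gene scaled by its length and by a factor for its library, so that genes of different length can be compared. Between 28314785 and 40168372 reads per wound, recovered from the FPKM, fell on genes. Most keratinocyte markers separated the wounds more than the diagnosis did. Keratin 5 (KRT5), the keratin of basal keratinocytes, stood at 29.2 FPKM in diabetic replicate 4 and at 1112 to 2861 FPKM in the other 6 diabetic wounds. In the non-diabetic minipig it stood at 211 FPKM in replicate 1 and at 817 to 1553 FPKM in the other 3 wounds. An epidermal index, the mean log2(FPKM + 0.5) of KRT5 and the basal collagen gene COL17A1, neither of them among the 41 genes, was 3.28 in diabetic replicate 4 and 5.42 in non-diabetic replicate 1, against 7.47 to 9.04 in the other 9 wounds. Its mean differed between the groups by 0.31 with all 11 wounds (two-sided exact permutation test over 330 splits, p = 0.812), where the smallest p the test can give is 0.00303. Diabetic replicate 4 and non-diabetic replicate 1 are called the epidermis-poor wounds here. Without them the difference of the index was 0.38 (exact permutation test over 84 splits, p = 0.274), where the smallest possible p is 0.0119. They were picked from these same measurements, and counts over the genes are given with and without them. Not every keratinocyte marker followed this split. The basal keratin gene KRT15 was at 6.83 FPKM in diabetic replicate 4 and at 5.76 FPKM in diabetic replicate 3. In non-diabetic replicates 1 to 4 it was at 1.81, 0.679, 9.97 and 0.943 FPKM. KRT2, a suprabasal keratin gene, was at 0.0603 FPKM in diabetic replicate 4 and at 0 FPKM in diabetic replicate 1. In bulk tissue, fewer keratinocytes and less RNA per keratinocyte cannot be told apart.

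**Figure D1:**
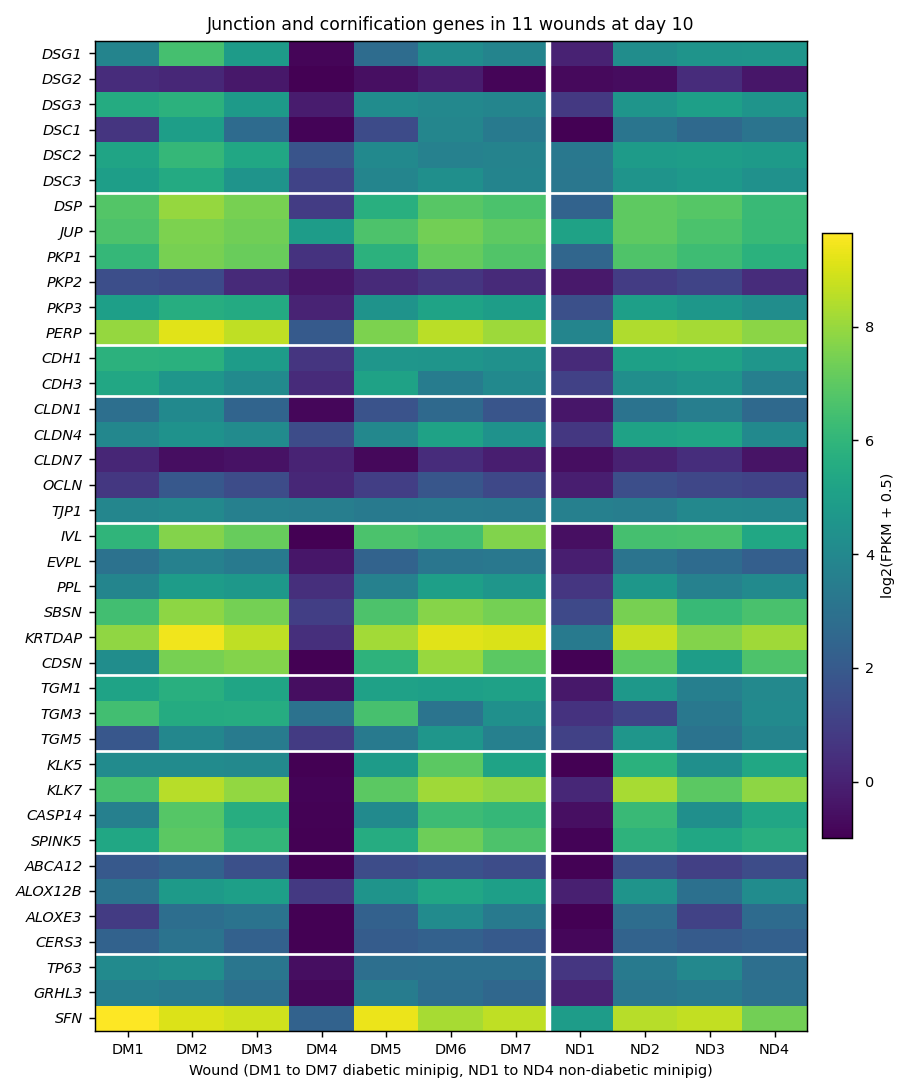
Level of the 39 genes found (rows, grouped by role in the order of the text) in the 11 wounds (columns), as log2(FPKM + 0.5) by colour. DM1 to DM7 are diabetic replicates 1 to 7 and ND1 to ND4 are non-diabetic replicates 1 to 4. The columns of DM4 and ND1, with a summed level of 76.2 and 146 FPKM over the 39 genes, stand out as dark, against 1776 to 4360 FPKM in the other 9 wounds.

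Fibroblast and endothelial markers were not reduced in the epidermis-poor wounds. The summed level of 6 fibroblast markers, the collagen genes COL1A1, COL1A2 and COL3A1 among them, was 49947 FPKM in diabetic replicate 4, against 18978 to 52415 FPKM over the diabetic wounds. In non-diabetic replicate 1 it was 64501 FPKM, the highest of the 4 non-diabetic wounds, against 34062 FPKM in the lowest. The 6 endothelial markers summed to 267 and 241 FPKM in these wounds, against 205 to 264 FPKM in the other 9. Of the marker lists, the basal keratinocyte list had 1 of 5 tested genes called higher in diabetic wounds, KRT15. The macrophage list had 1 of 5, CD14, and the adipocyte list 1 of 4 called lower, LEP, against 3.00% of all genes tested (limma, 11 wounds). LEP passed the filter of 0.5 FPKM in 4 libraries only through the non-diabetic wounds, the lowest at 0.579 FPKM. The diabetic wounds were at 0.407 FPKM or less, so the filter itself favoured a call of LEP as lower. No gene was called of the suprabasal (3 tested), simple epithelial (5), fibroblast (6) or endothelial (6) lists. None was called of the hair follicle list (2 tested) or the wound-activated, sebaceous and melanocyte lists (1 tested in each). Most genes of these last lists were missing or under the filter on low values, so a change in them could not be judged. PMEL, the melanocyte gene tested, had a log2 fold change of -2.11 (limma, adjusted p = 0.0958). Without the epidermis-poor wounds KRT15 and CD14 were not called (limma, adjusted p = 0.0892 and 0.0918), and LEP was under the filter on low values. The gene described as keratin 17 (LOC100737113), a keratin of wound-activated keratinocytes, matched no symbol and was chosen after its values were seen. Its log2 fold change was 2.41 with 11 wounds (limma, adjusted p = 0.392). Without the epidermis-poor wounds it was called higher, at 2.13 (limma, adjusted p = 0.018). The other genes looked up by description were not called there, with adjusted p from 0.318 to 0.864 (limma). KRT6A, the gene tested of the wound-activated list, had an adjusted p of 0.53 there (limma). Skeletal muscle markers summed to 1344 FPKM in diabetic replicate 3 and to at most 0.21 FPKM elsewhere. The part of these cell types in the results below was not tested.

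With all 11 wounds, none of the 38 genes that could be tested was called different. To be called, a gene had to pass 0.05 in adjusted p and differ by more than 0.5 on the log2 scale (limma on log2(FPKM + 0.5), Benjamini-Hochberg adjustment over 13956 genes), and 3.00% of all genes tested were called. The exception to testing was DSG2, whose level was under the filter. Only TGM3 had an unadjusted p under 0.05, that is 1 of 38 genes against 18.4% of all genes tested. No gene of the 38 had diabetic and non-diabetic wounds that did not overlap, against 5.65% of all genes. The fold change was nevertheless positive, meaning higher in diabetic wounds, for 32 of the 38 genes, against 52.3% of all genes, with a median log2 fold change of 0.51 against 0.01 over all genes. The median standard error was 0.99 for these genes and 0.15 over all genes tested, so fold changes of this size lay within the spread between wounds.

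The sign of that median changed with the epidermis-poor wounds in the comparison. Without non-diabetic replicate 1, 5 of the 38 genes had a positive fold change and the median was -0.39. Without diabetic replicate 4, 36 of 37 genes had a positive fold change and the median was 1.18. None of these members was called in either fit. Over all genes, 106 were called higher and 75 lower of 13856 without non-diabetic replicate 1. Without diabetic replicate 4, 189 were called higher and 220 lower of 13875. The median log2 fold change over all genes was 0.0002 and 0.016 in these fits. Leaving out both wounds gave 23 of 37 positive fold changes, against 51.9% of all genes, and a median of 0.19. In that comparison of 6 with 3 wounds, 1 of 37 genes was called, TGM1, against 1.36% of all genes tested, and the same gene alone had groups that did not overlap, against 9.40% of all genes. An unadjusted p under 0.05 was reached by TGM1, TGM3 and SFN, 3 of 37 genes, against 15.5% of all genes. With the epidermal index as a covariate over all 11 wounds, 25 of 38 fold changes were positive, the median was 0.16, and 0 of 38 genes were called, against 4.03% of all genes. TGM1, JUP and TGM3 had an unadjusted p under 0.05 there. With the index in the 9 wounds, a fit chosen after seeing the data, TGM1 and TGM3, higher, and CLDN1 and TP63, lower, had an unadjusted p under 0.05. No member was called in that fit, against 115 higher and 82 lower of 13766 genes.

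**Figure D2:**
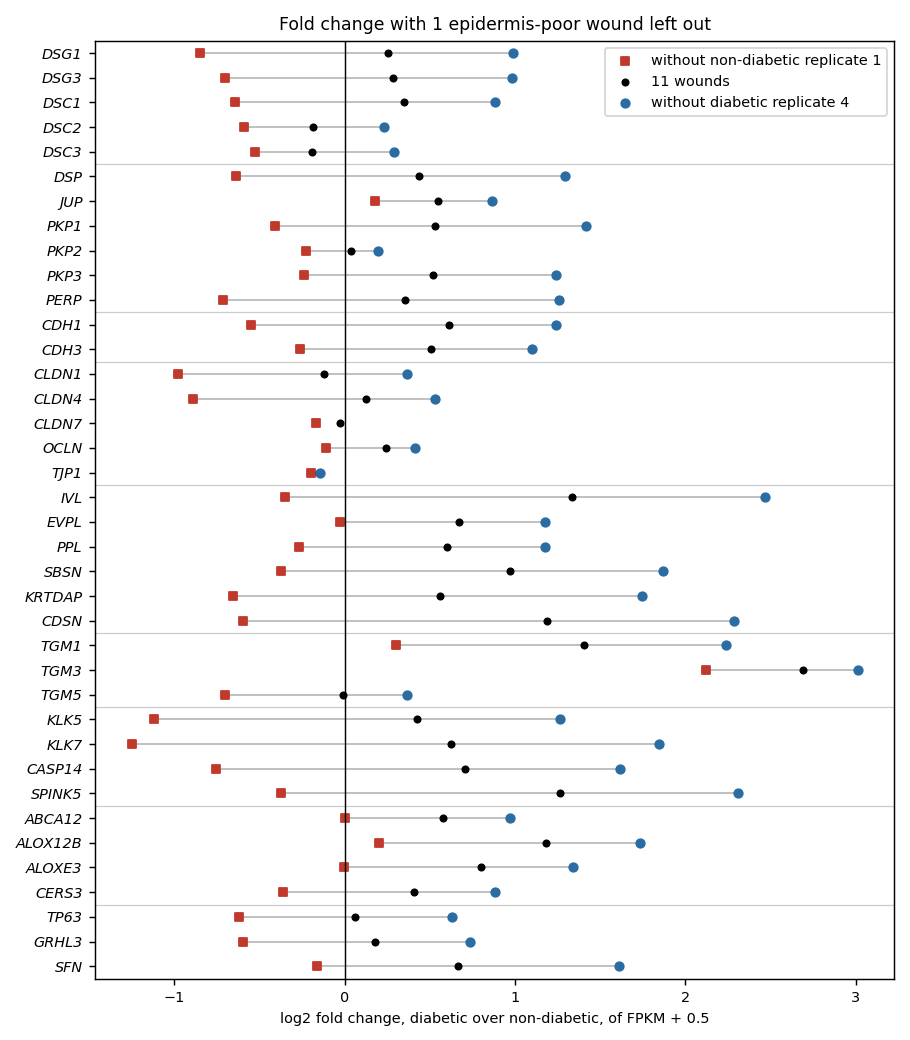
Log2 fold change of FPKM + 0.5, diabetic over non-diabetic (horizontal axis), for the 38 genes tested, with all 11 wounds (black) and with 1 epidermis-poor wound left out (squares, without non-diabetic replicate 1; circles, without diabetic replicate 4). The median moves from -0.39 to 1.18 between the squares and the circles. Genes with no circle or square were under the filter in that fit.

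**Figure D3:**
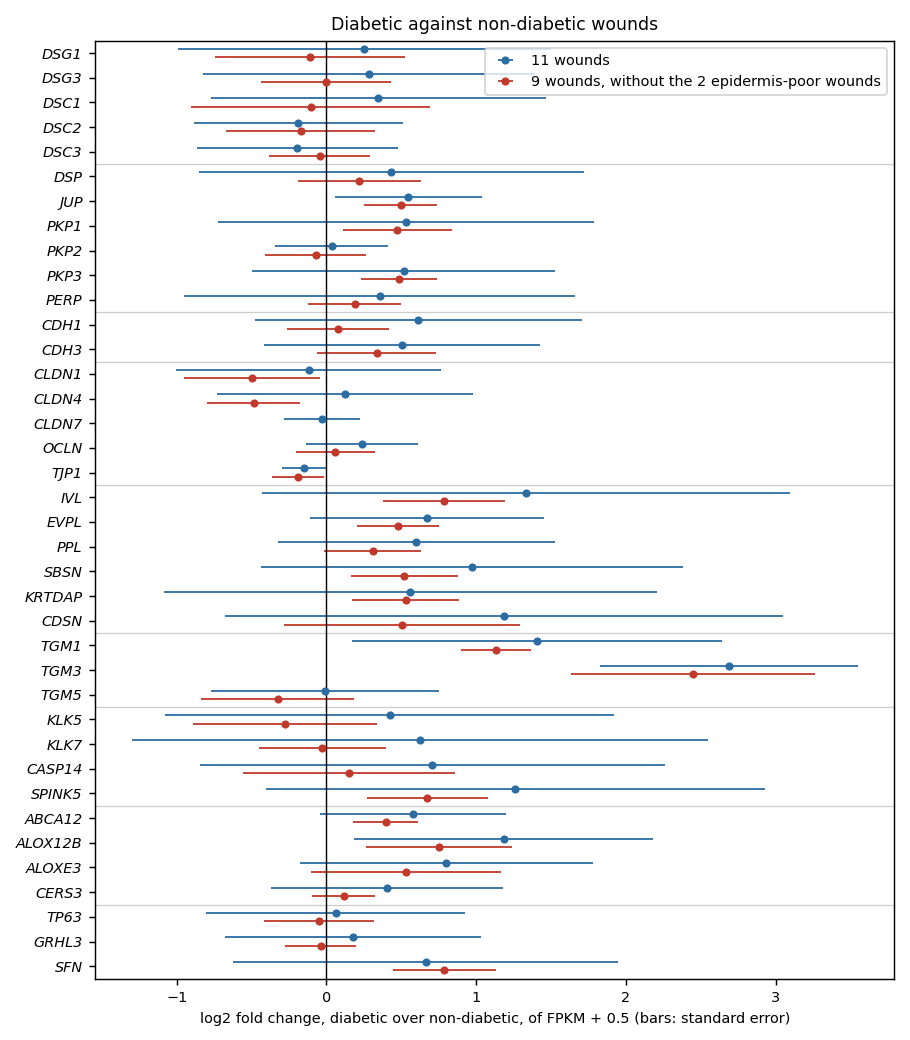
Log2 fold change of FPKM + 0.5 for the 38 genes tested, diabetic over non-diabetic, with all 11 wounds (blue) and with the 9 wounds left after both epidermis-poor wounds were taken out (red). Bars are the standard error of limma, with a median over the genes of 0.99 for 11 wounds and 0.36 for 9 wounds, and TGM1 and TGM3 lie farthest to the right in red.

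None of the 5 desmosomal cadherins tested was called. All 6 genes lie in a cluster on chromosome 6 of the pig genome (Sscrofa11.1), chr6:114916759-115453763, a stretch of 537 kb, with the 3 desmocollins on the minus strand and the 3 desmogleins on the plus strand. DSG1, the desmoglein of the upper layers, was at 0.0589, 13.5 and 89.7 FPKM in the lowest, median and highest diabetic wound, and at 0.512, 18.1, 22.2 and 22.9 FPKM in non-diabetic replicates 1 to 4. The diabetic wounds enclosed the whole non-diabetic range, and diabetic replicate 2 was the highest of all wounds. DSG3, the desmoglein of the lower layers, was at 0.365, 17.5 and 56.8 FPKM in the lowest, median and highest diabetic wound and at 1.19, 22.8, 32.0 and 22.4 FPKM in the non-diabetic wounds. DSC1, the desmocollin of the upper layers, reached 30.7 FPKM in diabetic replicate 2 with a median of 6.18 FPKM over the diabetic wounds, and had 0 reads in non-diabetic replicate 1, which allows up to 0.028 FPKM (3 reads, counting error only), with 8.27, 5.72 and 7.99 FPKM in the others. The log2 fold changes of DSG1, DSG3 and DSC1 were 0.25, 0.28 and 0.35 with 11 wounds and -0.11, -0.0016 and -0.11 without the epidermis-poor wounds.

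DSC2 and DSC3, the desmocollins of the basal and lower layers, were retained better in the epidermis-poor wounds. DSC2 was at 2.89, 16.3 and 66.9 FPKM in the lowest, median and highest diabetic wound and at 8.99, 28.0, 30.4 and 27.8 FPKM in the non-diabetic wounds. DSC3 was at 1.69, 19.1 and 44.5 FPKM, and at 8.75, 22.1, 26.2 and 20.2 FPKM, in the same order. In non-diabetic replicate 1 they kept 32.1% and 39.6% of the median of the other 3 wounds, where DSG1 and DSG3 kept 2.31% and 5.22%. DSG2, the desmoglein of simple epithelia and heart, was low, at 0.00612 to 0.772 FPKM in diabetic and 0.095 to 0.759 FPKM in non-diabetic wounds. Its reads ran from 1 in diabetic replicate 4 to 147 in diabetic replicate 2. The difference of mean log2 was 0.02 (two-sided exact permutation test, p = 0.942).

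Of the 6 genes of the desmosomal plaque, all 6 had a positive fold change with 11 wounds, against 52.3% of all genes. The fold changes lay between 0.04 and 0.55 on the log2 scale, and none was called. Without non-diabetic replicate 1 alone, only JUP stayed positive, at 0.18. JUP encodes plakoglobin, which links desmosomes and adherens junctions to their filaments. Its level was 29.3, 129 and 188 FPKM in the lowest, median and highest diabetic wound and 34.8, 128, 100.1 and 72.4 FPKM in non-diabetic replicates 1 to 4. Among the 9 epidermis-rich wounds, 4 of 6 diabetic wounds were above the highest non-diabetic wound, and the groups overlapped. The log2 fold change was 0.55 ± 0.49 (SE) with 11 wounds and 0.50 ± 0.24 without the epidermis-poor wounds (limma, adjusted p = 0.608 and 0.367). JUP kept 19.96% and 34.8% of the median of its group in the diabetic and the non-diabetic epidermis-poor wound, more than DSP, PKP1, PKP3 and PERP in either.

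DSP, the plaque protein desmoplakin that binds keratin, was at 1.36, 111 and 252 FPKM in the lowest, median and highest diabetic wound and at 4.77, 129, 115 and 73.8 FPKM in the non-diabetic wounds. PKP1, the plakophilin of the upper layers, was at 0.995, 108 and 178 FPKM against 5.23, 105, 80.2 and 54.9 FPKM, and PKP3, present in all layers, at 0.539, 31.8 and 48.9 FPKM against 2.57, 32.0, 24.1 and 18.3 FPKM. PERP, a tetraspan protein of desmosomes and a target of p63, was the most abundant of the plaque group, at 3.53, 269 and 577 FPKM against 13.98, 337, 297 and 220.2 FPKM. In all of these the diabetic wounds enclosed the non-diabetic ones. PKP2, the plakophilin of heart and simple epithelia, stayed at 0.272 to 2.41 FPKM in diabetic and 0.338 to 1.77 FPKM in non-diabetic wounds. Without the epidermis-poor wounds the log2 fold changes of DSP and PERP were 0.22 ± 0.41 and 0.19 ± 0.31 (SE). Those of PKP1 and PKP3 were 0.47 ± 0.36 and 0.49 ± 0.25 (SE), with adjusted p of 0.575 and 0.402 (limma).

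The classical cadherins of the adherens junction lie close to each other on chromosome 6 and showed no called difference. CDH1, E-cadherin of all epidermal layers, was at 1.04, 23.7 and 57.0 FPKM in the lowest, median and highest diabetic wound and at 0.713, 33.1, 34.3 and 23.9 FPKM in the non-diabetic wounds. CDH3, P-cadherin of the basal layer, was at 0.726, 16.6 and 41.1 FPKM against 1.59, 18.7, 22.3 and 11.5 FPKM. Both were highest in diabetic replicate 1, and without the epidermis-poor wounds their log2 fold changes were 0.08 ± 0.34 and 0.33 ± 0.39 (SE).

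The tight junction genes differed among themselves in the epidermis-poor wounds, and none was called. TJP1, the scaffold ZO-1 that is also present in endothelium and fibroblasts, ranged from 9.85 to 15.7 FPKM over the diabetic wounds, with a median of 11.4 FPKM, and was 11.8, 11.2, 15.0 and 14.8 FPKM in the non-diabetic wounds. Its level in the epidermis-poor wounds, 11.4 and 11.8 FPKM, lay inside the range of the others, as did that of the endothelial marker PECAM1, at 75.4 to 108 FPKM in all 11 wounds. The log2 fold change of TJP1 was -0.15 ± 0.14 (SE; limma, adjusted p = 0.64). CLDN1, the main claudin of the epidermis, was at 0.0764, 4.90 and 16.1 FPKM in the lowest, median and highest diabetic wound and at 0.283, 7.80, 11.13 and 5.81 FPKM in the non-diabetic wounds. CLDN4, a claudin of the granular layer, was at 2.29, 16.9 and 34.2 FPKM against 1.18, 34.7, 37.5 and 16.3 FPKM. Both were on the lower side in diabetic wounds once the epidermis-poor wounds were left out, at -0.49 ± 0.45 and -0.49 ± 0.31 (SE), and neither passed the threshold. With the epidermal index as a covariate in those wounds CLDN1 was at -1.02 ± 0.32 (SE; limma, unadjusted p = 0.0118, adjusted p = 0.151). CLDN4 was at -0.61 ± 0.34 there (SE; limma, adjusted p = 0.351), and neither was called. Occludin (OCLN), at 0.439 to 3.31 FPKM, and CLDN7, at 0.0912 to 0.805 FPKM, were low in all wounds. Of the 4 tight junction genes tested without the epidermis-poor wounds, 3 had a negative fold change, with a group median of -0.34.

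The cornified envelope proteins had positive fold changes for 6 of 6 genes with all wounds, against 52.3% of all genes, with a median of 0.82. Without the epidermis-poor wounds it was again 6 of 6, against 51.9% of all genes, with a median of 0.51. Without non-diabetic replicate 1 alone all 6 were negative, from -0.65 for KRTDAP to -0.026 for EVPL. None was called in any of these comparisons. IVL, involucrin, the early scaffold of the envelope, had 0 reads in diabetic replicate 4, which allows up to 0.057 FPKM, and a median of 100.4 FPKM in the diabetic wounds with a highest value of 202 FPKM. In the non-diabetic wounds IVL was at 0.169, 90.6, 94.7 and 40.3 FPKM. Among the epidermis-rich wounds 4 of 6 diabetic wounds were above the highest non-diabetic wound, and the log2 fold change was 0.78 ± 0.41 (SE; limma, adjusted p = 0.40). EVPL and PPL encode envoplakin and periplakin, which line the membrane before the envelope forms. They reached 12.4 and 31.4 FPKM in the highest diabetic wound and 8.05 and 24.5 FPKM in the highest non-diabetic wound, both in overlapping ranges.

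SBSN (suprabasin) and KRTDAP (keratinocyte differentiation-associated protein), secreted products of suprabasal keratinocytes, lie close to each other on chromosome 6. SBSN was at 1.48, 171 and 229.8 FPKM in the lowest, median and highest diabetic wound and at 2.04, 175, 71.8 and 94.9 FPKM in the non-diabetic wounds. KRTDAP was at 0.857, 399.97 and 681 FPKM against 9.55, 435, 202 and 283 FPKM, and in the diabetic wounds had the highest median after SFN. For both genes non-diabetic replicate 2 stood inside the diabetic range, replicate 3 was below every epidermis-rich diabetic wound, and replicate 4 was above only the lowest of them. CDSN, corneodesmosin, the glycoprotein that seals the desmosomes of the cornified layer, had 0 reads in diabetic replicate 4 and 2 reads in non-diabetic replicate 1. Elsewhere it ranged from 18.3 to 254 FPKM in diabetic wounds and from 30.0 to 125 FPKM in non-diabetic wounds, a 13.9-fold range over the 9 wounds.

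Of the 38 genes, the transglutaminases TGM3 and TGM1 had the largest fold changes, both towards higher levels in diabetic wounds. TGM1, the membrane-bound transglutaminase that builds the envelope of the epidermis, was at 35.5, 52.9, 38.3, 0.165, 33.5, 31.8 and 34.0 FPKM in diabetic replicates 1 to 7. In non-diabetic replicates 1 to 4 it was at 0.305, 25.3, 11.5 and 15.7 FPKM. All 6 epidermis-rich diabetic wounds lay above all 3 epidermis-rich non-diabetic wounds, and both epidermis-poor wounds were close to the floor. With these 2 wounds included the log2 fold change, 1.40 ± 1.24 (SE), had an adjusted p of 0.602 (limma). Without them it was 1.13 ± 0.23, a 2.19-fold higher level with an adjusted p of 0.0457. With the epidermal index as a covariate in the same 9 wounds it was 1.01, with an adjusted p of 0.0899, and was not called. With the index over all 11 wounds it was 1.04, with an adjusted p of 0.102.

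TGM3, a soluble transglutaminase of the upper epidermis and the hair follicle that is activated by proteolysis, was at 86.1, 47.1, 47.6, 7.50, 93.8, 8.15 and 19.95 FPKM in diabetic replicates 1 to 7. In non-diabetic replicates 1 to 4 it was at 0.974, 1.68, 9.01 and 16.6 FPKM. Of the 7 diabetic wounds, 5 were above the highest non-diabetic wound, and replicates 4 and 6 overlapped with it. The log2 fold change was 2.69 ± 0.86 (SE), 6.45-fold on the scale of FPKM + 0.5, with an unadjusted p of 0.0093 and an adjusted p of 0.117 (limma). Without the epidermis-poor wounds it was 2.45 ± 0.82, with an adjusted p of 0.191. TGM3 kept 15.8% and 10.8% of the median of its group in the epidermis-poor wounds, more than TGM1, which kept 0.474% and 1.94%. The hair follicle list, of which KRT25, KRT27, KRT28 and KRT35 were measured along with HOXC13 and MSX2, summed to 5.84 to 10.5 FPKM in diabetic and 6.54 to 11.08 FPKM in non-diabetic wounds. Most of this sum was MSX2, at 5.72 to 9.67 FPKM in diabetic and 6.49 to 10.2 FPKM in non-diabetic wounds. The keratins of the list were at most 0.237 FPKM in any wound, so the sum says little about hair follicle content. TGM5, the third epidermal transglutaminase, was not called, at 1.31, 10.3 and 24.0 FPKM in the lowest, median and highest diabetic wound and 1.56, 23.5, 7.85 and 13.3 FPKM in the non-diabetic wounds, and its log2 fold change without the epidermis-poor wounds was -0.33 ± 0.51 (SE).

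**Figure D4:**
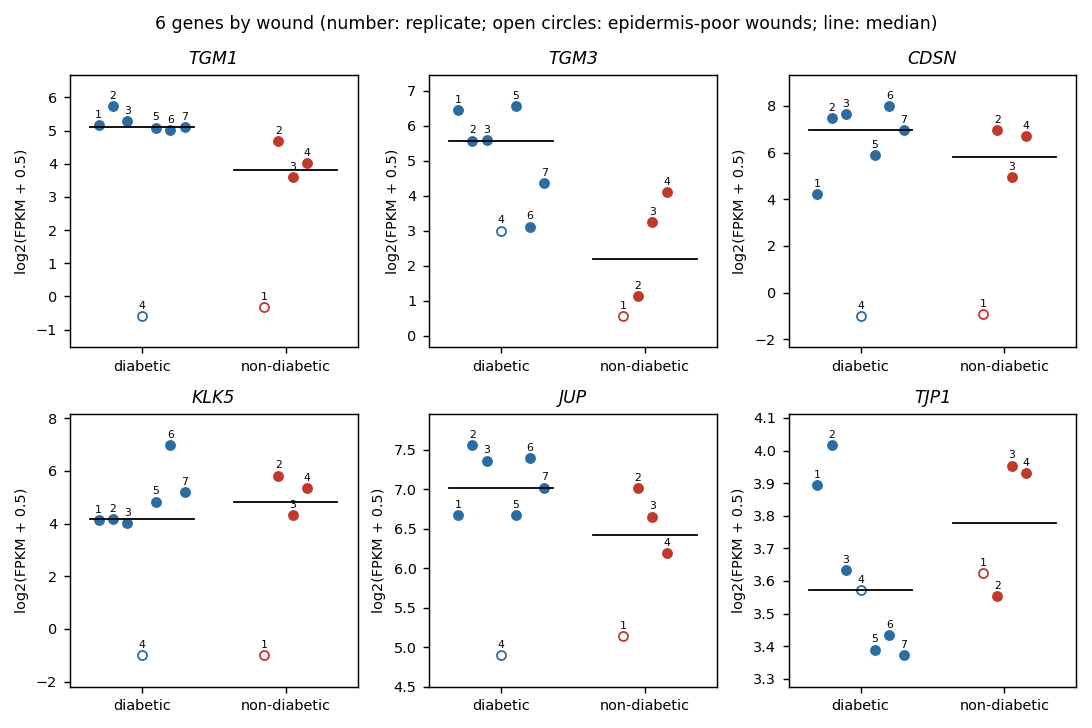
Level of 6 genes as log2(FPKM + 0.5) (vertical axis) in each wound, diabetic in blue and non-diabetic in red, with the median of all wounds of the group as a line, the replicate number above each point, and the epidermis-poor wounds as open circles. TGM1 separates the filled circles of the groups, TGM3 does so except for diabetic replicate 6, and TJP1 shows no drop in the open circles.

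The promoters of TGM1 and TGM3, the genes that differed most, and of IVL, their substrate, are shown from 250 bases before to 50 bases after the annotated gene start, as 300 bases of Sscrofa11.1 read 5′ to 3′ on the strand of the gene. TGM1 is from chr7:75029873-75030172 (plus strand), TGM3 from chr17:33236016-33236315 (minus strand) and IVL from chr4:96658688-96658987 (minus strand). Capitals mark exact matches, on either strand, to the AP-1 motif TGACTCA or the TATA box motif TATAAA.
TGM1: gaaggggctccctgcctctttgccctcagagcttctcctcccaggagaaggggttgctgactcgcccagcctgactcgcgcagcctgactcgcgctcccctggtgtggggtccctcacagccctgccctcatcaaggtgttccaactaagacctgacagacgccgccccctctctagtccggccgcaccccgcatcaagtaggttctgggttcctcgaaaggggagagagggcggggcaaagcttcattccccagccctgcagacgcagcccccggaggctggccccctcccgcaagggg
TGM3: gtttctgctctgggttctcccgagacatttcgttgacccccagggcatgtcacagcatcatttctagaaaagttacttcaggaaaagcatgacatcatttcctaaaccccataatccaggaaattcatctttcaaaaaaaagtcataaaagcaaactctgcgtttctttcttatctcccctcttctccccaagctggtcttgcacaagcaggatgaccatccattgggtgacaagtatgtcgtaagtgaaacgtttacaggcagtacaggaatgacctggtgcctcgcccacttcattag
IVL: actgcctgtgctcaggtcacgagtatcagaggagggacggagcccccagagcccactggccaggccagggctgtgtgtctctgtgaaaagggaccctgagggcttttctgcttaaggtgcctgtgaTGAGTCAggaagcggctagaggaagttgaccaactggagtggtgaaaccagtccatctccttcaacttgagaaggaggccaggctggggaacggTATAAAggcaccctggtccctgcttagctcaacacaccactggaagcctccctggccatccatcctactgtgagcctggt
In the IVL promoter an AP-1 match, on the reverse strand, began at position -124 and a TATA box match at -30, counted from the gene start, and the promoters of TGM1 and TGM3 held neither. Over the 39 genes an AP-1 match was present in 4 promoters (ALOXE3, SFN, IVL and PERP), against 3.57% of the 20664 promoters of protein-coding genes, and a TATA box match in 3 (DSC2, SPINK5 and IVL), against 11.6%. The grainyhead motif AACCGGTT was in 0 of the 39 promoters and in 0.102% of all promoters. The matches do not overlap in these promoters, and a match is a description of the letters only.

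The proteases that cut corneodesmosomes and their inhibitor varied widely between wounds of the same animal. KLK5 and KLK7, the trypsin-like and chymotrypsin-like kallikreins of the stratum corneum, lie in the kallikrein cluster on chromosome 6. KLK5 had 0 reads in both epidermis-poor wounds, which allows up to 0.059 and 0.066 FPKM. It had a median of 17.3 and a highest value of 125 FPKM in the diabetic wounds, and was at 56.1, 19.5 and 39.9 FPKM in non-diabetic replicates 2 to 4. Diabetic replicate 6 alone gave the highest value, and the other 5 epidermis-rich diabetic wounds were at 15.6 to 35.9 FPKM. KLK7 was at 0.0384, 233 and 363 FPKM in the lowest, median and highest diabetic wound and at 0.639, 301, 125 and 230.4 FPKM in the non-diabetic wounds. CASP14, the caspase of cornification that takes part in processing filaggrin, was at 0.0216, 48.7 and 113 FPKM against 0.168, 74.1, 19.3 and 39.2 FPKM, with a log2 fold change of 0.15 ± 0.71 (SE) without the epidermis-poor wounds.

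SPINK5 encodes LEKTI, the inhibitor of these kallikreins. It had 0 reads in diabetic replicate 4 and 4 reads in non-diabetic replicate 1, a median of 66.7 and a highest value of 157 FPKM in the diabetic wounds, and 58.4, 40.4 and 51.7 FPKM in non-diabetic replicates 2 to 4. Among the epidermis-rich wounds 4 of 6 diabetic wounds were above the highest non-diabetic wound. Without the epidermis-poor wounds the log2 fold change was 0.67 ± 0.40 (SE) for SPINK5, against -0.28 ± 0.61 for KLK5 and -0.03 ± 0.42 for KLK7, and none of them passed the threshold (limma, adjusted p = 0.467, 0.866 and 0.982). The group median was 0.06.

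The barrier lipid genes had positive fold changes for 4 of 4 genes with and without the epidermis-poor wounds, against 52.3% and 51.9% of all genes. The medians were 0.69 and 0.46, and none was called. Without non-diabetic replicate 1 alone, CERS3 (-0.36) and ALOXE3 (-0.0056) were negative. ALOX12B and ALOXE3, close to each other on chromosome 12, encode the lipoxygenases that act in turn on the linoleate of epidermal ceramides. ALOX12B was at 1.21, 27.1 and 39.4 FPKM in the lowest, median and highest diabetic wound and at 0.457, 22.4, 7.06 and 17.7 FPKM in the non-diabetic wounds. With the epidermis-poor wounds left out, 5 of 6 diabetic wounds were above the highest non-diabetic wound and replicate 1, at 7.85 FPKM, was not. ALOXE3 had 0 reads in both epidermis-poor wounds and 1.30 to 17.0 FPKM in the other diabetic wounds, against 6.52, 1.67 and 6.19 FPKM. ABCA12, the transporter that loads lipids into lamellar granules, was at 2.26 to 4.62 FPKM in the epidermis-rich diabetic wounds against 1.53 to 2.504 FPKM, and CERS3, the ceramide synthase of very long chain epidermal ceramides, at 3.56 to 7.92 FPKM against 3.68 to 4.76 FPKM.

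Among the regulators, TP63, the transcription factor that defines stratified epithelia, was at 0.151, 7.10 and 18.6 FPKM in the lowest, median and highest diabetic wound and at 1.12, 10.1, 15.3 and 6.87 FPKM in the non-diabetic wounds. GRHL3, a grainyhead factor needed for barrier formation, was at 0.0911, 6.92 and 11.7 FPKM against 0.555, 8.5, 9.98 and 7.25 FPKM. Their log2 fold changes were 0.06 and 0.18 with 11 wounds and -0.05 ± 0.37 and -0.04 ± 0.24 (SE) without the epidermis-poor wounds. SFN, stratifin or 14-3-3 sigma, which is made in stratified epithelia and takes part in cell cycle control, had the highest median level of the 39 genes in both groups. It was at 804, 549.6, 470.1, 4.57, 650.5, 302 and 399 FPKM in diabetic replicates 1 to 7 and at 29.3, 365, 408 and 167 FPKM in the non-diabetic wounds. Without the epidermis-poor wounds 4 of 6 diabetic wounds were above the highest non-diabetic wound, and the log2 fold change was 0.79 ± 0.34 (SE; limma, unadjusted p = 0.0448, adjusted p = 0.31).

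The genes differed in how much of them was left in the epidermis-poor wounds. Diabetic replicate 4 held under 10% of the median of the other diabetic wounds for 30 of the 39 genes and under 1% for 16. Non-diabetic replicate 1 held under 10% of the median of its group for 27 genes and under 1% for 8, and 28 genes were at a larger share there than in diabetic replicate 4. The 8 genes under 1% in both were DSC1, IVL, CDSN, KLK5, KLK7, CASP14, SPINK5 and ALOXE3. By role, the median share left was lowest for the proteases and their inhibitor, at 0.0081% in diabetic replicate 4 and 0.178% in non-diabetic replicate 1, and highest for the tight junction genes, at 29.8% and 23.0%. The desmosomal cadherins kept 1.70% and 18.6%, and the plaque genes 1.40% and 8.58%. These shares describe 2 single wounds and carry no test.

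**Figure D5:**
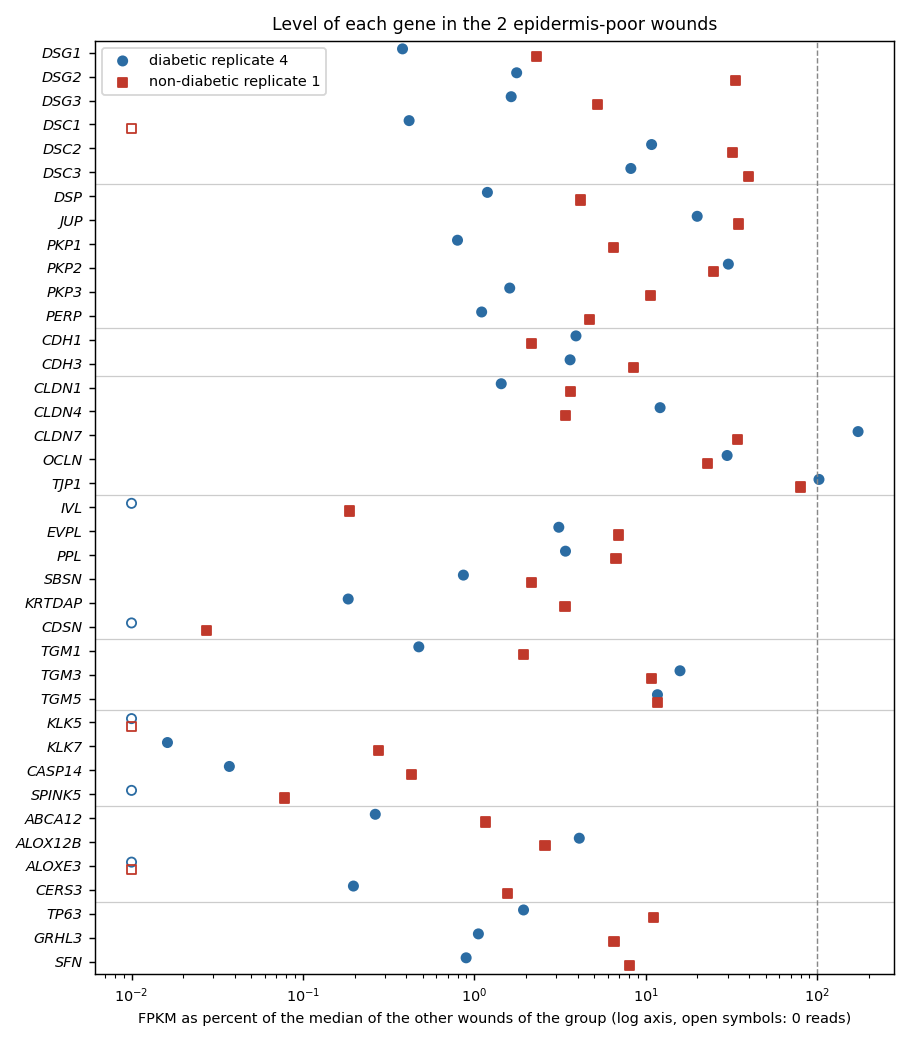
Level of each of the 39 genes in the epidermis-poor wounds, as a percent of the median of the other wounds of the same group (logarithmic axis), for diabetic replicate 4 (circles) and non-diabetic replicate 1 (squares). Open symbols are genes with 0 reads, drawn at the left edge, and the dashed line marks 100%, near which TJP1 lies at 102% and 80.1%. CLDN7, at 173% in diabetic replicate 4, rests on 29 reads there.

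The 9 epidermis-rich wounds also differed among themselves. The median standard deviation of the 38 tested genes on the log2 scale was 0.64 over the 6 diabetic wounds, against 0.25 for all genes tested, and 0.44 over the 3 non-diabetic wounds, against 0.18. Diabetic replicate 2 was the highest of the 9 wounds for 23 of the 39 genes. Diabetic replicate 1 was the highest for 6 genes, among them SFN, CDH1 and CDH3, and the lowest for 9, among them CDSN, DSC1, CASP14, SPINK5 and ALOXE3. Diabetic replicate 6 was the highest for 7, among them KLK5, SPINK5, CDSN, TGM5 and ALOXE3. The suprabasal keratins KRT1 and KRT10, which are not among the 39 genes, stood at 2940 and 1960 FPKM in that wound and at 2561 and 1207 FPKM in replicate 7, against 134 to 358 FPKM and 37.8 to 224 FPKM in replicates 1, 2, 3 and 5. The same replicate 6 had the highest level of the simple epithelial and sweat gland list, a sum of 84.9 FPKM against 1.42 to 21.4 FPKM elsewhere, and its part in these values was not tested. Over the 9 wounds the range was widest for TGM3, 55.7-fold, and DSC1, 28.5-fold, and narrowest for TJP1, 1.59-fold.

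Beyond the 41 genes, 103 further genes of the same processes were listed, of which 87 were found and 80 tested. With 11 wounds 1 was called higher and 1 lower, against 3.00% of all genes tested, and without the epidermis-poor wounds 0 higher and 1 lower, against 1.36%, so these counts did not stand above the background. The lower gene was GJA1, connexin 43 of gap junctions, which is made by keratinocytes, fibroblasts and endothelium. It was at 451, 544 and 554 FPKM in the lowest, median and highest diabetic wound and at 692, 807, 837 and 825 FPKM in the non-diabetic wounds, with no overlap, as for 5.65% of all genes. Its log2 fold change was -0.60 ± 0.09 (SE; limma, adjusted p = 0.0052) and -0.68 ± 0.11 without the epidermis-poor wounds (adjusted p = 0.0163). The level of GJA1 in diabetic replicate 4 and non-diabetic replicate 1, at 546 and 692 FPKM, was not reduced in the way of the genes above. JAG2, a Notch ligand of the epidermis, was higher, at 7.88 to 10.4 FPKM in the diabetic minipig and 5.12 to 7.33 FPKM in the non-diabetic minipig. Its log2 fold change was 0.51 ± 0.10 (SE; limma, adjusted p = 0.0224), and it was not called without the epidermis-poor wounds, at 0.41 ± 0.11 (limma, adjusted p = 0.10).

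Of the most abundant genes of the lists, CSTB, a cystatin of the envelope, KLK6, a further kallikrein, and TRIM29, a protein of basal keratinocytes, were not called. KLK6 followed the kallikreins above, at 0.111, 176 and 571 FPKM in the lowest, median and highest diabetic wound and 0.225, 394, 147 and 301 FPKM in the non-diabetic wounds. By list, the envelope genes had 13 of 16 positive fold changes with 11 wounds and 11 of 16 without the epidermis-poor wounds, with medians of 0.46 and 0.27. The proteases and inhibitors went from 13 of 13 to 8 of 13, with medians of 0.45 and 0.04. The junction genes went from 7 of 17 to 5 of 17, with medians of -0.08 and -0.23. For the barrier lipid genes it was 12 of 13 and 11 of 13, with medians of 0.41 and 0.26. For the regulators it was 19 of 21 and 14 of 21, with medians of 0.30 and 0.03. Over all genes 52.3% and 51.9% were positive.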

How the data were processed

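Each of the 7 diabetic and 4 non-diabetic wounds gave 1 poly(A)-selected, directional library. After fastp trimming, the authors used HISAT2 2.2.1 for mapping to Sscrofa11.1, StringTie 2.2.3 for assembly and featureCounts 2.0.6 for counting. The FPKM values deposited by the authors were scaled by gene length and by a factor for each library. In every library 100.0% of these values were whole reads to within 0.05 reads, and 1 read on a 2 kb gene equalled 0.0112 to 0.0194 FPKM. The factor was 0.854 times the recovered reads on genes in non-diabetic replicate 1 and 1.18 times in diabetic replicate 2. It was thus not a plain count of mapped reads, and how it was set is not known here. Depth was 28314785 to 40168372 recovered reads on genes, and floors of 3 reads cover counting error only. The strand setting of the counting is not given in the sources used here. Of the members, 4 overlap another annotated gene: CDH3 and TJP1 on the same strand, CDSN and ABCA12 on the opposite strand.

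Genes with 0.5 FPKM or more in 4 or more libraries (13956) were compared on log2(FPKM + 0.5) by limma 3.58.1 (lmFit, eBayes with trend) in R 4.3.3, with Benjamini-Hochberg adjustment and the study's thresholds. The main test used FPKM, and voom on the recovered reads was an alternative. DSG2, under the filter, and the epidermal index were compared by exact permutation. Keratin 14 had no symbol match, so the index used KRT5 and COL17A1. The members, lists and epidermis-poor wounds were chosen with earlier results of these data known. Named are all members, called or most abundant related genes, and markers. On simulated data with 13956 genes, 77 of 100 genes changed by 1 and 90 of 100 changed by 2 on the log2 scale were called. The changed genes were drawn from all genes tested, whose median standard error was 0.15, against 0.99 for the members. These shares therefore do not tell how often such a change in a member would be called. Alternatives changed the pseudocount, filter, scaling, spread estimate, weights, covariates, block and wounds. Promoters and coordinates are from RefSeq, Sscrofa11.1. Other software was SciPy 1.17.1, pandas 2.3.3 and numpy 2.4.6 under Python 3.11.15, with plots by matplotlib 3.10.9. CSTA and FLG2 were not analysed here. The most abundant related gene of 1 list is not reported here.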

Additional observations from a re-analysis of the deposited data

Results flagged for a closer look

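Across the 39 genes and the epidermal index, 1 wound of a group stood apart from the others of that group in 38 of 80 comparisons of a gene within a group (Dixon's criterion on log2(FPKM + 0.5)), where chance alone gives about 1 in 20. It was diabetic replicate 4 in 27 cases and non-diabetic replicate 1 in 11, each time as the lowest wound. The genes share the same wounds and are not independent. Both wounds had already been picked as epidermis-poor from these same measurements, so the count is no separate support for setting them apart. The share over all genes is not given here. In diabetic replicate 4 the cadherins that stood apart were DSG3 at 0.365 FPKM, DSC3 at 1.69 FPKM, CDH1 at 1.04 FPKM and CDH3 at 0.726 FPKM. Of the plaque and tight junction genes, it held DSP at 1.36 FPKM, JUP at 29.3 FPKM, PKP1 at 0.995 FPKM, PKP3 at 0.539 FPKM, PERP at 3.53 FPKM and CLDN4 at 2.29 FPKM. Of the envelope proteins and their cross-linking enzymes, IVL and CDSN were at 0 FPKM, EVPL at 0.275 FPKM, PPL at 0.836 FPKM, SBSN at 1.48 FPKM, KRTDAP at 0.857 FPKM and TGM1 at 0.165 FPKM. The proteases and lipid genes followed, with KLK5 and SPINK5 at 0 FPKM, KLK7 at 0.0384 FPKM, CASP14 at 0.0216 FPKM, ABCA12 at 0.00689 FPKM and CERS3 at 0.00879 FPKM. The regulators TP63, GRHL3 and SFN were at 0.151, 0.0911 and 4.57 FPKM, and the epidermal index of this wound was 3.28.

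In non-diabetic replicate 1 the genes that stood apart were DSG1 at 0.512 FPKM, DSG3 at 1.19 FPKM, DSC1 at 0 FPKM, DSC2 at 8.99 FPKM, PERP at 13.98 FPKM and CDH1 at 0.713 FPKM. Among the cornification genes they were IVL at 0.169 FPKM, KLK7 at 0.639 FPKM, SPINK5 at 0.0403 FPKM, CERS3 at 0.0683 FPKM and GRHL3 at 0.555 FPKM. Why these wounds held so little RNA of these genes was not tested.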

How the results depend on the processing

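Of the members' results, whether any gene was called depended on the epidermis-poor wounds. With both left out 1 gene, TGM1, was called higher, and in every other alternative run 0 were called, including the epidermal index as a covariate in those same 9 wounds. TGM3 had an unadjusted p under 0.05 in each alternative, with adjusted p from 0.069 to 0.617 (limma). Over all genes, the counts called higher and lower (188 and 231) became 406 and 416 with library weights, 106 and 81 without both epidermis-poor wounds, and 115 and 82 with the epidermal index besides, an alternative chosen after seeing the data. With the replicate block 11 and 5 genes and no member were called. The labels give these numbers no shared meaning, and the deviations of same-numbered wounds from their group means correlated at -0.27, 0.21, 0.07 and -0.48. Leaving out 1 wound at a time gave 104 to 236 and 75 to 247, and an epidermal index difference of -0.36 to 1.05.

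None of the log2 fold changes that changed sign was called. Without both epidermis-poor wounds they were DSG1 (-0.11), DSG3 (-0.00162), DSC1 (-0.11), PKP2 (-0.071), CLDN4 (-0.49), KLK5 (-0.28), KLK7 (-0.0297), TP63 (-0.0505) and GRHL3 (-0.039), and the difference of DSG2 was -0.000898. With library weights they were DSG1 (-0.20), DSG3 (-0.18), PKP2 (-0.24), CLDN4 (-0.19), KLK5 (-0.045), TP63 (-0.25) and GRHL3 (-0.12). With the replicate block they were DSC1 (-0.10), DSC2 (0.14), PERP (-0.12), CLDN4 (-0.32), TJP1 (0.013), KRTDAP (-0.38), KLK5 (-0.79), KLK7 (-0.29), CASP14 (-0.0265), TP63 (-0.0187) and GRHL3 (-0.10). With the epidermal index they were DSG1 (-0.0902), DSG3 (-0.0407), PKP2 (-0.0507), PERP (-0.0304), CLDN4 (-0.0939), TP63 (-0.19) and GRHL3 (-0.0698). With an index of KRT5 and the gene described as keratin 14, chosen after seeing the data, they were DSG1 (-0.14), DSG3 (-0.0811), PKP2 (-0.0572), PERP (-0.0813), CLDN4 (-0.11), TP63 (-0.22) and GRHL3 (-0.0943). With the epidermal index in the 9 wounds they were DSG1 (-0.60), DSG3 (-0.50), DSC1 (-0.19), DSP (-0.22), PKP2 (-0.46), PERP (-0.0884), CDH1 (-0.34), CLDN4 (-0.61), OCLN (-0.0227), KLK7 (-0.0172), CERS3 (-0.0359), TP63 (-0.53) and GRHL3 (-0.23). Quantile normalization reversed CLDN7 (0.0173), a pseudocount of 0.1 TP63 (-0.0417), and voom on the recovered reads TP63 (-0.12) and GRHL3 (-0.00615).

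Leaving out 1 wound at a time, 32 of the 38 fold changes spanned 0, with the lowest value without non-diabetic replicate 1 for 37 genes and the highest without diabetic replicate 4 for 31. The ranges were DSG1 -0.85 to 0.99, DSG3 -0.70 to 0.98, DSC1 -0.64 to 0.88, DSC2 -0.59 to 0.23, DSC3 -0.52 to 0.29, DSP -0.64 to 1.29, PKP1 -0.41 to 1.41, PKP2 -0.23 to 0.25, PKP3 -0.24 to 1.24, PERP -0.71 to 1.26, CDH1 -0.55 to 1.24, CDH3 -0.26 to 1.10, CLDN1 -0.98 to 0.36, CLDN4 -0.89 to 0.61, CLDN7 -0.17 to 0.065, OCLN -0.11 to 0.44, IVL -0.35 to 2.47, EVPL -0.026 to 1.17, PPL -0.27 to 1.18, SBSN -0.38 to 1.87, KRTDAP -0.65 to 1.74, CDSN -0.59 to 2.29, TGM5 -0.70 to 0.48, KLK5 -1.12 to 1.26, KLK7 -1.25 to 1.85, CASP14 -0.76 to 1.62, SPINK5 -0.37 to 2.31, ALOXE3 -0.0056 to 1.34, CERS3 -0.36 to 0.88, TP63 -0.62 to 0.63, GRHL3 -0.59 to 0.73 and SFN -0.16 to 1.61. The cause was not tested. With 1 minipig per group no setting separates diabetes from the animal. Genes under about 0.5 FPKM can rest on few reads. DSG2 had from 1 to 147 reads per wound and CLDN7 from 5 to 47.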
